A study of Mus musculus with 26 samples.

Results

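The immediate early transcription factors are described here in macrophages sorted from mouse mammary tumours, as total mRNA and as mRNA held on polysomes. The 10 members were taken as the rows named exactly Fos, Fosb, Jun, Junb, Jund, Egr1, Egr2, Egr3, Ier2 and Atf3, out of 19549 gene rows in each deposited table. All 10 passed the filter on low counts in each comparison. Female FVB mice carried tumours grown from injected PyMT cells, a line of mammary tumour cells driven by the polyoma middle T oncogene, and each of 13 tumours gave 1 total mRNA library and 1 polysome library. The sort kept CD11b+ F4/80+ Ly6G- cells, in the presence of cycloheximide, which stalls ribosomes where they sit. The polysome fraction is the mRNA that carried 3 or more ribosomes in a sucrose gradient. The 8 small tumours weighed 467 to 841.8 mg and the 5 large tumours 1504 to 2245 mg. Batch 1, a label of the series, held small replicates 1 to 5 and large replicates 1 and 2. Batch 2 held small replicates 6 to 8 and large replicates 3 to 5, titled ER and LR. No untreated or tumour-free macrophages were analysed here, and all groups share the line, the sort and the drug.

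Immediate early genes are switched on within minutes of a signal, without new protein synthesis, by factors such as SRF with its ELK partners and by CREB. Their mRNAs are short-lived, and many are also induced while a tissue is taken apart. FOS proteins pair with JUN proteins to form AP-1, which binds DNA through a basic leucine zipper. The EGR proteins are zinc finger factors of GC-rich sites, ATF3 is a basic leucine zipper factor of the stress response, and IER2 is a small nuclear protein of the same rapid response. In macrophages these factors act downstream of growth factor, cytokine and Toll-like receptor signals.

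Promoter sequences just upstream of the starts were read for the members that had a usable entry. RefSeq promoters of build GRCm38.p6 were matched by symbol for 7 of the 10 members, and 6 were used, because the RefSeq start of Jund lies 1210 bases from that of the GENCODE model. The 5 sequences printed are the 120 bases before the RefSeq start, 5′ to 3′ on the strand of the gene, with matches to the searched motifs in capitals.
Fos (chr12:85473770-85473889, plus strand): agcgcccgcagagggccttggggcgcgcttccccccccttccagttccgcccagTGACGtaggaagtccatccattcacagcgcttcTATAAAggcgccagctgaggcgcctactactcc
Egr2 (chr10:67537749-67537868, plus strand): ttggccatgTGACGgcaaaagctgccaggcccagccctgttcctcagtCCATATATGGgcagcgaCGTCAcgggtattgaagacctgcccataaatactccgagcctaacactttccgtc
Junb (chr8:84978749-84978868, minus strand): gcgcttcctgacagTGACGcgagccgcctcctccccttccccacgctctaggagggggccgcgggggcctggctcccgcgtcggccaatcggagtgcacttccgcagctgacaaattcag
Atf3 (chr1:191183334-191183453, minus strand): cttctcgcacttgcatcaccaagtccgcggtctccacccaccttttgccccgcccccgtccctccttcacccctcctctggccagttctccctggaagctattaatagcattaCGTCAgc
Jun (chr4:95052223-95052342, minus strand): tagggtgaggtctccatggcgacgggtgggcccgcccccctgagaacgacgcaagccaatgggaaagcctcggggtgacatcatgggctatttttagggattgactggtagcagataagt
In these sequences TGACG, the opening letters of the cyclic AMP element TGACGTCA, marks Fos, Egr2, Junb and Atf3. Jun holds no match to a searched motif. It does hold TGACATCA, which has A in place of the second G of TGACGTCA, and such near matches were not searched. TGACG was added after these promoters had been read, so its count in them is a description and not a test. Over 250 bases and both strands it was found in 5 of the 6 member promoters, the fifth being that of Fosb. It was found in 17.8% of 32851 promoters. G and C made up 58.4% to 68.8% of the 250 bases in the 6 member promoters, beside a median of 52.4% over all promoters. The CArG box, the SRF site of CC, 6 bases of A or T, and GG, was found in Egr2 alone among the 6, and in 1.47% of all promoters. The TATA box TATAAA was found in Fos alone, and in 12.4% of all promoters. The EGR site GCGNGGGCG was found in Fosb alone, at 50 to 42 bases before the start, and in 4.7% of all promoters. Neither the full cyclic AMP element TGACGTCA, which contains TGACG, nor the AP-1 site TGANTCA was found in these 6 windows, against 1.55% and 6.75% of all promoters. A match of letters is a description of these windows and says nothing on which factor binds them.

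Libraries held 18018519 to 55609113 counts in total mRNA and 7034173 to 28257436 in polysome mRNA. By batch, polysome libraries held 7034173 to 20699272 counts in batch 1 and 14315435 to 28257436 in batch 2. Total mRNA libraries held 18018519 to 24360756 counts in batch 1 and 20418974 to 55609113 in batch 2. Gene rows with counts numbered 11850 to 17990 in total mRNA of batch 1 and 12247 to 13201 in batch 2. In polysome mRNA they numbered 10695 to 11339 and 11239 to 12334. The 10 members took 0.127% to 0.58% of a total mRNA library and 0.149% to 0.585% of a polysome library. Lars2 alone took 4.8% to 25.9% of a polysome library in batch 1 and 2.17% to 10.3% in batch 2. It took at most 0.902% of a total mRNA library, and its part in the member values was not tested. The summed level of 12 macrophage markers was 40920 to 195008 CPM (counts scaled to library size, here with TMM factors) in total mRNA and 6587 to 146406 in polysome mRNA, and all 12 had counts in each group. The total mRNA libraries of small replicates 6 and 7 and large replicate 3, all of batch 2, stood apart from the rest. Small replicate 7 had the lowest macrophage sum of both sources, small replicate 6 (195008 CPM) and large replicate 3 (175822 CPM) had the highest of total mRNA, and the lowest polysome sum of the other tumours was 23316 CPM. In these 3 libraries Lars2 took 0.00304% to 0.00658% of the counts. In the other total mRNA libraries of batch 2 it took 0.0502% (large replicate 4), 0.0792% (small replicate 8) and 0.571% (large replicate 5). In those of batch 1 it took 0.433% to 0.902%. Leaving out the 3 tumours thus keeps batch 2 libraries with less Lars2 than any of batch 1. Small replicate 7 also had the lowest median correlation with other libraries in both sources, and the most fibroblast marker RNA, at 4619 CPM in total and 4527 CPM in polysome mRNA. Tests over both batches, gene lists and correlations were therefore repeated without these 3 tumours, a check chosen after the data had been seen. Batch 2 alone was not refitted without them, since they are 3 of its 6 tumours, nor was the size effect that differs between batches.

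Per kilobase of exon, in the gene models of GENCODE M21, Fos was the most abundant member in both sources, with means of 564 CPM per kb in total mRNA and 599 CPM per kb in polysome mRNA. Ier2 (379 CPM per kb) and Junb (230 CPM per kb) followed in total mRNA, with Jun at 122 CPM per kb. Egr3 was the least abundant, at 0.75 CPM per kb in total and 4.56 CPM per kb in polysome mRNA. Fos lies at chr12:85473890-85477273 on the plus strand and has 4 exons, while Jun, Junb, Jund and Ier2 are single-exon genes. The gene models of Jun and Jund overlap the antisense transcripts Junos and Gm11175, that of Junb overlaps Prdx2, and that of Atf3 spans the misc_RNA gene Gm24748 on the other strand. SmartSeq2 does not mark the strand, so reads of such pairs cannot be told apart where they overlap.

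**Figure D1:**
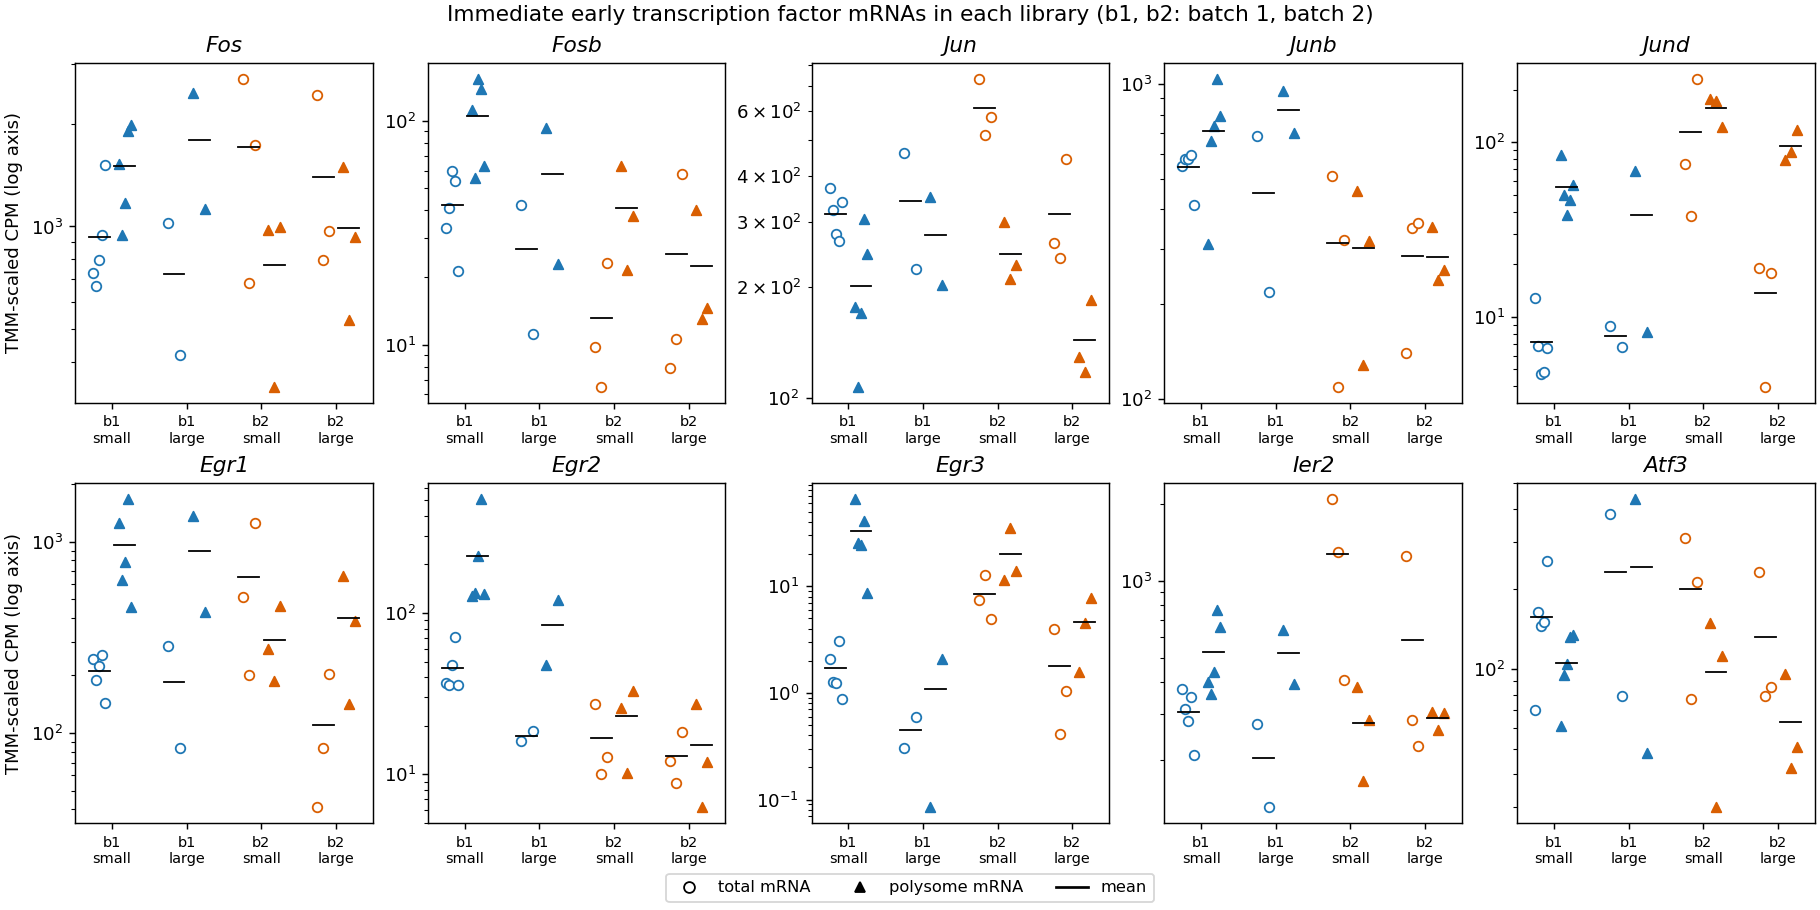
TMM-scaled CPM (log axis) of the 10 members in each of the 26 libraries, by batch and size class. Open circles are total mRNA, filled triangles are polysome mRNA and bars are group means. Egr1 and Egr2 triangles lie above the circles in batch 1 and overlap them in batch 2.

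The first question was which of these mRNAs were over- or under-represented on polysomes. Over both batches 5 of the 10 were higher in polysome than in total mRNA and 2 were lower, beside 22.6% and 34% of the 12109 genes tested. Jund, the JUN protein that is expressed at rest in many cells, was higher by 2.35 ± 0.34 (log2 fold ± SE, 13 tumours, adjusted p = 2.30e-06). All 3 EGR mRNAs were higher, with log2 folds of 2.12 ± 0.49 for Egr3 (adjusted p = 0.000648), 1.40 ± 0.26 for Egr1 (6.74e-05) and 1.12 ± 0.21 for Egr2 (6.86e-05). In batch 2 alone Egr3 (1.52 ± 0.66, adjusted p = 0.098), Egr1 (0.48 ± 0.42, 0.416) and Egr2 (0.21 ± 0.40, 0.734) did not pass. Fosb was higher by 1.00 ± 0.28 (adjusted p = 0.004). Jun was lower, with a log2 fold of -0.90 ± 0.17 (adjusted p = 6.87e-05), as was Atf3, with -0.76 ± 0.16 (0.000327). For Fos (0.09 ± 0.16), Junb (0.30 ± 0.20) and Ier2 (-0.10 ± 0.23) the adjusted p was 0.65, 0.214 and 0.734. The median of the 10 was 0.65, and that of all genes tested was -0.34. Unless another test is named, adjusted p-values come from edgeR's quasi-likelihood test with Benjamini-Hochberg adjustment over all genes. The SE given here was worked back from that test, as the size of the log2 fold over the square root of its F value. The tumour was a block in the comparisons of polysome with total mRNA and of polysome association, and not in those within 1 RNA source. A library gives each mRNA as a share of its own RNA source, so a difference is relative to the other mRNAs. Fewer cells of a type and less RNA per cell cannot be told apart in such bulk samples. Without the 3 tumours that stood apart (22.6% of genes higher and 29.3% lower), Fosb was at 0.50 ± 0.25 (adjusted p = 0.102) and Ier2 passed the threshold as higher at 0.49 ± 0.19 (adjusted p = 0.0332).

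The batches differed from each other. In batch 1 alone 8 of the 10 members were higher in polysome mRNA and none was lower, beside 21.3% and 27.9% of 12603 genes. In batch 2 alone Jund was higher and Fos, Jun, Ier2 and Atf3 were lower, beside 14% and 15.9% of 12081 genes. The member median of polysome minus total mRNA was 0.47 to 1.60 (log2 CPM) in the tumours of batch 1 and -0.66 to 0.23 in those of batch 2. Per tumour, 7 to 9 members lay above 0 in batch 1, and 3 to 5 did so in batch 2. The median of all genes moved the other way, from between -0.43 and -0.16 in batch 1 to between -0.16 and 0 in batch 2.

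**Figure D2:**
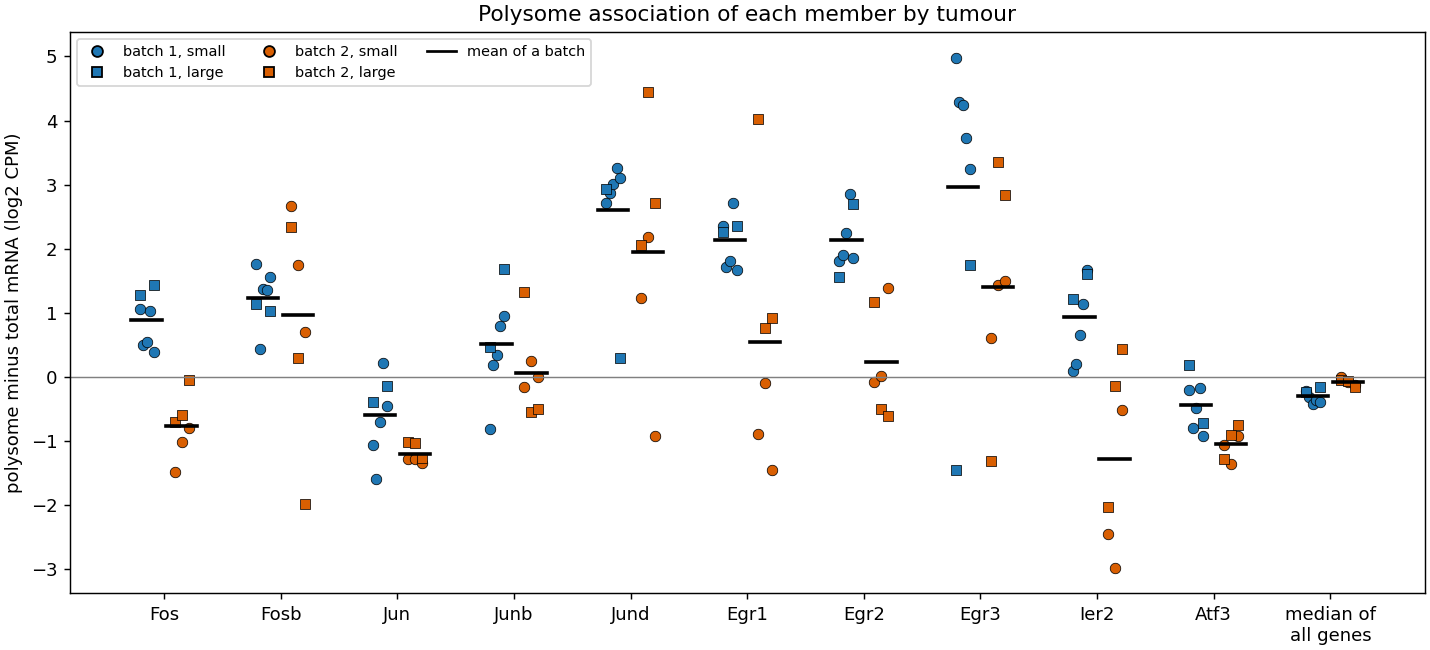
Polysome minus total mRNA (log2 CPM, prior count of 1) of each member in each of the 13 tumours, with the median of all genes at the right. Circles are small and squares large tumours, colours are batches and bars are batch means. Fos lies above 0 in all 7 tumours of batch 1 and below 0 in all 6 of batch 2.

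The difference between batches was tested as a term of the same fit. Fos, Egr1, Egr2 and Ier2 had a lower polysome association in batch 2 than in batch 1, 4 of 10 members beside 6.95% of 12109 genes called lower and 10.5% called higher. The log2 differences were -1.80 ± 0.32 for Fos (adjusted p = 0.000372), -1.98 ± 0.52 for Egr1 (0.00896), -1.86 ± 0.42 for Egr2 (0.00288) and -2.43 ± 0.47 for Ier2 (0.000803). The other 6 values ran from -1.67 ± 0.89 for Egr3 to -0.05 ± 0.55 for Fosb and did not pass. The median of the 10 members was -1.23, and that of all genes was 0.26. Without the 3 tumours Fos (-1.57 ± 0.38, adjusted p = 0.0142), Egr1 (-2.36 ± 0.46, 0.0052) and Egr2 (-1.78 ± 0.47, 0.0234) passed, beside 3.34% of genes lower and 3.88% higher, while Ier2 was at -1.24 ± 0.40 (0.0636). Egr3 then lay at 0.044 ± 1.11 and Fosb at -1.28 ± 0.53, and neither passed (adjusted p = 0.993 and 0.154). The labels give no account of what else differed between the batches, so batch and anything handled with it cannot be told apart. Marker levels also moved with the batch. The summed level of 10 neutrophil markers was 71.6 to 237 CPM in total and 131 to 452 CPM in polysome mRNA of batch 1, and 57.2 to 122 and 44.7 to 175 CPM in batch 2. It was higher in polysome than in total mRNA in all 7 tumours of batch 1 and in 3 of 6 in batch 2. The sort had removed Ly6G+ cells, and of these markers Ly6g, Camp and Ngp were at 0 in every polysome library of batch 1, while the other 7 had counts. The macrophage sum was higher in polysome mRNA in 2 of 7 tumours of batch 1 and in 0 of 6 in batch 2. Dendritic markers were higher in polysome mRNA in 6 of 7 tumours of batch 1 and 1 of 6 of batch 2. In the same order the counts were 3 and 6 for endothelial markers and 0 and 3 for T and NK markers. They were 0 and 1 for epithelial, 2 and 1 for fibroblast, and 2 and 2 for B cell markers. No endothelial sum passed 12.2 CPM and no T and NK sum 30.6 CPM. The part of any of these in the difference between batches was not tested.

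Fos, the partner of JUN in AP-1, lay on opposite sides of 0 in the batches. In total mRNA of batch 1 its level was 419 to 1517 CPM with a median of 797, and in polysome mRNA 942 to 2476 with a median of 1524. In batch 2 total mRNA ran from 681 to 2727 with a median of 1352, and polysome mRNA from 336 to 1496 with a median of 954. Within a tumour, polysome minus total mRNA in batch 1 was 1.06, 0.49, 0.55, 1.02 and 0.39 in small replicates 1 to 5 and 1.27 and 1.43 in large replicates 1 and 2. In batch 2 it was -1.48, -1.02 and -0.80 in small replicates 6 to 8 and -0.71, -0.59 and -0.05 in large replicates 3 to 5. The batches did not overlap, a pattern of batch 2 below batch 1 that 2.35% of all genes tested also showed. Fitted alone, batch 1 gave 1.05 ± 0.20 (adjusted p = 0.000232) and batch 2 gave -0.79 ± 0.26 (adjusted p = 0.034).

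Ier2 lies at chr8:84661331-84662852 on the minus strand. In batch 1 its total mRNA was 377, 315, 282, 350 and 209 CPM in small replicates 1 to 5 and 276 and 130 CPM in the large replicates. In batch 2 the small replicates 6 and 7 and large replicate 3 had 2089, 1298 and 1249 CPM, and the other 3 tumours 409, 286 and 225 CPM. The 3 high libraries are those with the least Lars2, and the part of that in this result was not tested beyond leaving them out. Polysome Ier2 was 362 to 767 CPM in batch 1 and 165 to 383 CPM in batch 2. Polysome minus total mRNA was 0.09 to 1.66 in the 7 tumours of batch 1. In batch 2 it was -2.45, -2.98 and -2.03 in the 3 tumours that stood apart and -0.52, -0.14 and 0.44 in the others.

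Egr1 is the EGR factor most often used as a mark of recent stimulation. Its total mRNA in batch 1 was 83.7 to 284 CPM with a median of 224, and its polysome mRNA 428 to 1682 CPM with a median of 783. Each of the 7 tumours had more of it in polysome than in total mRNA, by 1.67 to 2.72 on the log2 scale. In batch 2 the polysome minus total differences were -0.90, -0.10 and -1.45 in small replicates 6 to 8 and 4.03, 0.76 and 0.91 in large replicates 3 to 5. Small replicate 8 had the most total Egr1, at 1255 CPM, and large replicate 3 the least, at 40.8 CPM. Batch 1 alone gave 2.20 ± 0.22 (adjusted p = 1.76e-07) and batch 2 alone 0.48 ± 0.42 (0.416).

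Egr2, which takes part in myeloid and lymphoid differentiation, lies at chr10:67535475-67542188 on the plus strand. Total Egr2 in batch 1 was 36.7, 35.7, 47.6, 70.8 and 36 CPM in the small tumours and 16.1 and 18.6 CPM in the large ones. In polysome mRNA of the same tumours it was 128, 134, 226, 512 and 131 CPM, and 47.6 and 121 CPM. In batch 2 it was 8.82 to 27.2 CPM in total and 6.22 to 32.9 CPM in polysome mRNA. Every polysome library of batch 2 lay below each one of batch 1, as for 3.62% of the genes tested. Polysome minus total mRNA was 1.56 to 2.85 in batch 1 and -0.61 to 1.38 in batch 2. This lack of overlap, with batch 2 below batch 1, was shown by 2.35% of the genes tested.

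Egr3, a relative of Egr2 that is induced by antigen and growth factor signals, was scarce. Its counts were 7 to 639 per total mRNA library and 1 to 806 per polysome library, the count of 1 being that of large replicate 1. Polysome minus total Egr3 was below 0 in large replicate 1 (-1.45) and large replicate 3 (-1.31), and was 0.60 to 4.98 in the other tumours. In polysome mRNA small tumours had 66.4, 25.5, 24.5, 41.4 and 8.67 CPM in batch 1 and 11.4, 35 and 14 CPM in batch 2. Large tumours had 0.0842 and 2.07 CPM in batch 1 and 1.58, 4.57 and 7.71 CPM in batch 2. Every large tumour was below every small one, a pattern shown by 0.137% of 10933 genes. The log2 fold of large against small tumours was -3.25 ± 0.82 in edgeR's quasi-likelihood test (adjusted p = 0.146). DESeq2 gave -3.35 with an adjusted p of 0.000673, while in the other alternatives run the adjusted p of Egr3 was 0.0675 to 0.8, so the call depends on the tool.

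Jund lies at chr8:70698949-70700616 on the plus strand. In batch 1 it had 4.72 to 12.9 CPM in total mRNA and 8.16 to 84.6 CPM in polysome mRNA. In batch 2 total Jund was 75.5, 37.9 and 232 CPM in the small tumours and 19.1, 3.95 and 17.9 CPM in the large ones, and polysome Jund was 79.6 to 177 CPM. Polysome minus total mRNA was above 0 in all 7 tumours of batch 1, and in 5 of 6 in batch 2, where small replicate 8 was at -0.92. It passed the test as higher in polysome mRNA in batch 1 (2.34 ± 0.35, adjusted p = 1.79e-05) and in batch 2 (1.95 ± 0.44, 0.00601).

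Jun and Atf3 went the other way from Jund. Jun, the founding AP-1 protein, had 224 to 461 CPM in total and 107 to 351 CPM in polysome mRNA of batch 1, and 240 to 735 and 118 to 300 CPM in batch 2. Its polysome minus total difference was below 0 in 6 of 7 tumours of batch 1, small replicate 4 being at 0.21, and was -1.34 to -1.02 in batch 2. Atf3 was below 0 in 6 of 7 and in 6 of 6 tumours, with values of -0.93 to 0.19 and -1.36 to -0.75. Fos, Jun and Atf3 were the 3 members below 0 in every tumour of batch 2, a pattern of 15.6% of the genes tested. In batch 1 alone neither Jun (-0.48 ± 0.23, adjusted p = 0.088) nor Atf3 (-0.37 ± 0.22, 0.169) passed the test.

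Fosb, a second FOS protein, had 11.2 to 59.9 CPM in total and 22.9 to 155 CPM in polysome mRNA of batch 1. It was higher in polysome mRNA in all 7 of these tumours (batch 1 alone 1.22 ± 0.24, adjusted p = 0.000336). In batch 2 its differences ran from -1.98 in large replicate 5 to 2.67 in small replicate 6. Junb, the JUN protein that tempers AP-1 activity, was above 0 in 6 of 7 tumours of batch 1, at -0.82 in small replicate 1, and between -0.55 and 1.32 in batch 2. Fos, Fosb, Jund, Egr1, Egr2 and Ier2 lay above 0 in every tumour of batch 1, 6 members beside 19.6% of the genes tested.

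Within each RNA source the batches differed as follows. In total mRNA 3 members were higher in batch 2, Jund by 2.84 ± 0.64 (adjusted p = 0.0138), Egr3 by 2.23 ± 0.55 (0.0185) and Ier2 by 1.87 ± 0.45 (0.0168), and none was lower, beside 11.1% and 5.66% of 11671 genes. In polysome mRNA 5 members were lower in batch 2, beside 10.3% of 10933 genes. They were Egr2 (-2.99 ± 0.49, adjusted p = 0.000374), Egr1 (-1.47 ± 0.44, 0.0221), Fosb (-1.37 ± 0.41, 0.0213), Junb (-1.36 ± 0.34, 0.00713) and Ier2 (-0.90 ± 0.29, 0.0343). Jund alone was higher in polysome mRNA, by 1.42 ± 0.36 (adjusted p = 0.00905), beside 11.1% of genes. Fos was at 0.95 ± 0.38 in total mRNA (adjusted p = 0.0947) and -0.94 ± 0.36 in polysome mRNA (0.0712), neither of which passed. Without the 3 tumours the count of all genes called in total mRNA went from 1952 to 5, or 0.0432%, with no member among them, and Jund was at 3.19 ± 0.75 (adjusted p = 0.0731). In polysome mRNA Egr2, Fosb and Junb still passed as lower without them, beside 4.82% of genes lower and 3.99% higher, and Egr1 (adjusted p = 0.0847), Ier2 (0.128) and Jund (0.117) did not. Leaving out small replicate 7 took Egr3 in total mRNA to an adjusted p of 0.0521, and leaving out small replicate 6 took Ier2 to 0.0586. In polysome mRNA, leaving out large replicate 1 took Fosb to 0.12 and Egr1 to 0.0864, and Ier2 was past 0.05 in 5 of 13 such fits, up to 0.092.

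**Figure D3:**
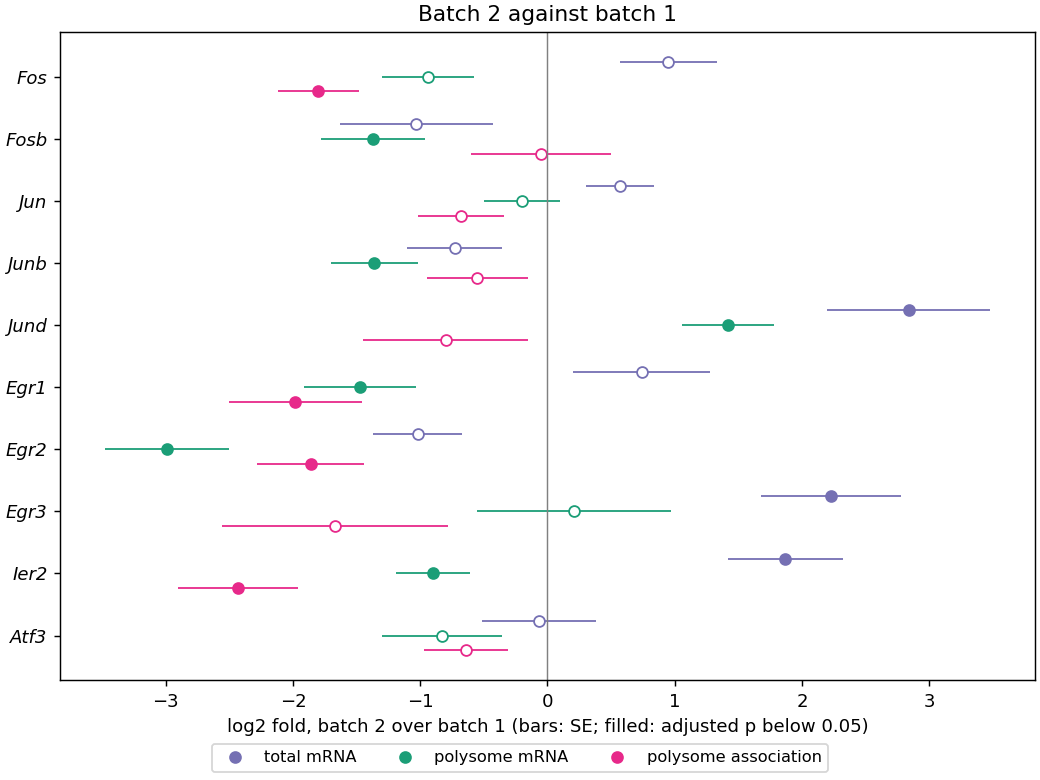
Log2 fold of batch 2 over batch 1 for each member in total mRNA, polysome mRNA and polysome association, with bars of 1 SE and filled points where the adjusted p is below 0.05. All 10 values of polysome association lie below 0, from -2.43 for Ier2 to -0.05 for Fosb, while without the 3 tumours that stood apart, not drawn here, Egr3 was at 0.044.

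Tumour weight was the variable that the series set out to vary. No gene passed the edgeR test between large and small tumours in total mRNA (538 of 11671 genes at an unadjusted p below 0.05), in polysome mRNA (1362 of 10933) or in polysome association (1385 of 12109), which puts the share of genes called at 0%. DESeq2 called 0, 147 and 129 genes and limma's voom 0 in each. In total mRNA 9 of the 10 members had a negative log2 fold for large tumours, with a median of -0.66 beside -0.03 for all genes. The 3 EGR mRNAs had an unadjusted p below 0.05 there: Egr3 at -2.13 ± 0.60, Egr2 at -0.88 ± 0.36 and Egr1 at -1.35 ± 0.58, each with an adjusted p of 0.865 in edgeR. Within batches Egr3 was at -1.98 in batch 1 and -2.24 in batch 2, Egr2 at -1.43 and -0.34, and Egr1 at -0.24 and -2.57. In polysome mRNA the members divided evenly, 5 positive and 5 negative. In polysome association Egr1 was at 1.36 ± 0.53 (adjusted p = 0.342), Ier2 at 1.02 ± 0.47 (0.427) and Fos at 0.61 ± 0.32 (0.476), with within-batch values for Egr1 of 0.25 and 2.56. No gene passed for a size effect that differed between batches, with 735, 655 and 904 genes at an unadjusted p below 0.05 in total mRNA, polysome mRNA and association. Among members that term was farthest from 0 relative to its SE for Jund in total mRNA (-3.17 ± 0.94, adjusted p = 0.636) and in association (3.53 ± 1.12, adjusted p = 0.494).

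**Figure D4:**
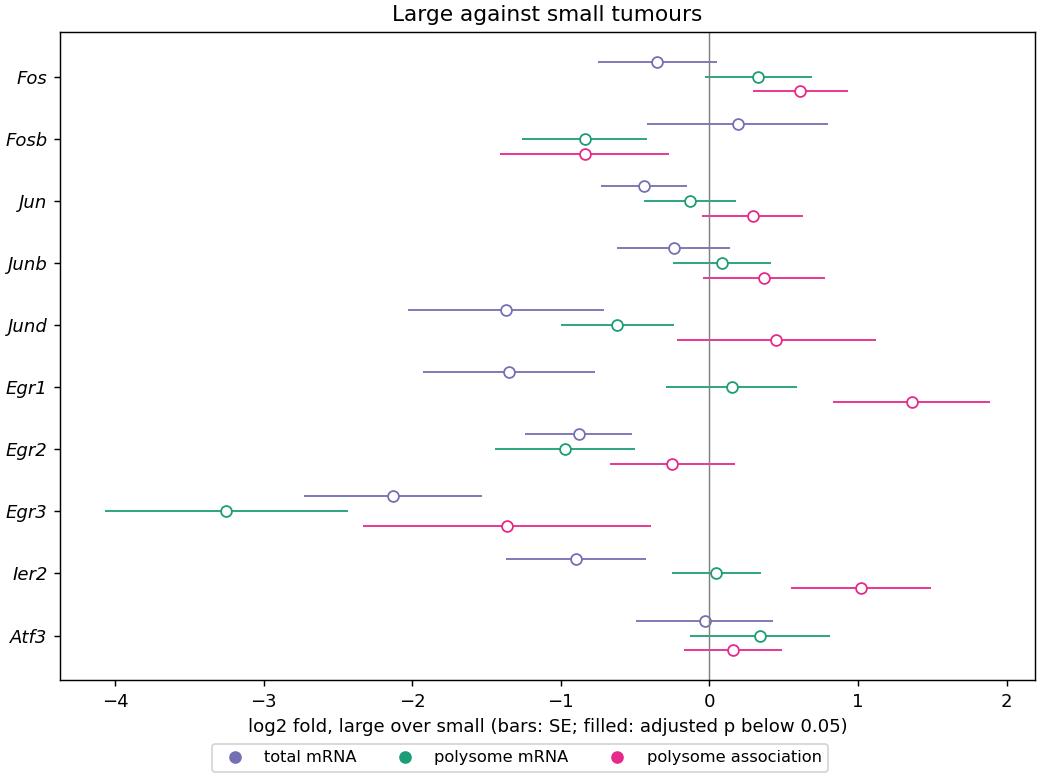
Log2 fold of large over small tumours for each member in total mRNA, polysome mRNA and polysome association, with bars of 1 SE. No point is filled because no adjusted p lay below 0.05, and Egr3 in polysome mRNA lies farthest from 0 at -3.25.

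The rest of the rapid response was read from lists of related genes. Beside their counts stand 22.6% of all genes higher and 34% lower in polysome mRNA, and 10.5% higher and 6.95% lower in association in batch 2. Of 28 other immediate early genes tested, 13 were higher in polysome mRNA and 4 were lower, with a median of 0.52 beside -0.34 for all genes, and medians of 0.80 in batch 1 and 0.23 in batch 2. Srf, the serum response factor, was higher by 3.06 ± 0.26 (adjusted p = 1.12e-09), and Zfp36, which encodes the mRNA decay factor tristetraprolin, by 1.79 ± 0.22 (1.79e-07). In association 6 of the 28 were lower in batch 2 and 0 higher. Among them were Zfp36 at -3.39 ± 0.43 (adjusted p = 1.50e-05), Nr4a1, an orphan nuclear receptor, at -2.20 ± 0.35 (0.000155) and Ier3 at -1.88 ± 0.37 (0.000915). The 19 other AP-1, ATF and EGR partners tested had 6 higher and 0 lower in that comparison. Atf1 (2.66 ± 0.41, adjusted p = 0.000103) had the lowest p of them, and Batf (2.98 ± 0.55, 0.000522) and Atf2 (2.82 ± 0.65, 0.00371) had larger log2 differences. Fosl1 could not be read, because its row is joined with that of Ccdc85b. Of 22 kinases and factors upstream, 11 were higher in polysome mRNA and 1 was lower, among them Mapkapk2 (2.56 ± 0.27, adjusted p = 2.57e-08). In the comparison of association between batches, 2 of these were higher and 3 lower. Of 14 heat shock genes, 8 were lower in polysome mRNA and 1 was higher, with Hspa8 at -3.06 ± 0.18 (adjusted p = 1.43e-11), and between batches 3 were higher in association and 1 was lower. Of 20 inflammatory genes of the rapid response, 6 were higher in polysome mRNA, among them Tnf (1.47 ± 0.19, adjusted p = 3.95e-07), and 7 were lower. Between batches 1 of the 20 was higher in association and 5 were lower, with Ccl3 at -2.14 ± 0.40 (adjusted p = 0.000585). Without the 3 tumours, beside 3.88% of genes higher and 3.34% lower in association, the other immediate early genes had 0 higher and 5 lower. The AP-1, ATF and EGR partners had 2 higher and 1 lower there, with Atf2 at 1.92 ± 0.76 (adjusted p = 0.136). The upstream list had 0 in either direction, the heat shock genes 1 in each, and the inflammatory genes 0 higher and 4 lower.

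Across the 13 tumours the members' levels were compared in pairs, 45 per RNA source, with a permutation test of 100000 resamples and Benjamini-Hochberg adjustment. In polysome mRNA 21 pairs passed, 19 of them positive and the 2 negative ones being Jund with Junb and with Egr2, and in total mRNA 4 passed, all positive. With each batch mean removed 5 and 4 passed, and without the 3 tumours 6 and 1. Junb and Ier2 had r = 0.915 and rho = 0.896 in polysome mRNA (permutation p = 1e-05, the smallest these resamples can give, and 0.00011, adjusted p = 0.00045 and 0.00495). Within batches r was 0.665 and 0.963, and without the 2 tumours farthest from the median of Junb 0.837. With batch means removed r was 0.8 (adjusted permutation p = 0.0166). In total mRNA the same pair had r = -0.362 and rho = -0.209 (adjusted permutation p = 0.444 and 0.673), with within-batch values of 0.9 and -0.323. Fos and Egr1 had r = 0.826 and rho = 0.797 in polysome mRNA (permutation p = 0.00055 and 0.00177, adjusted p = 0.00825 and 0.0114), with 0.506 and 0.866 within batches and 0.771 without the 2 farthest tumours. With batch means removed this pair no longer passed (r = 0.7, adjusted permutation p = 0.0631). Fos and Fosb had r = 0.672 and rho = 0.758 in polysome mRNA (permutation p = 0.0102 and 0.00394, adjusted p = 0.0305 and 0.0148). Their r was 0.363 and 0.531 within batches and 0.666 without the 2 farthest tumours. This pair did not pass with batch means removed (r = 0.442, adjusted permutation p = 0.281) or without the 3 tumours (r = 0.719, 0.0666). Fos and Jun had r = 0.42 and rho = 0.467 in polysome mRNA (permutation p = 0.154 and 0.112, adjusted p = 0.259 and 0.173). Their r was 0.904 and -0.0085 within batches. Without the 3 tumours Fos and Jun had r = 0.821 (adjusted permutation p = 0.0342) and rho = 0.733 (0.0749) in polysome mRNA. In total mRNA r was 0.23 for Fos with Egr1, -0.22 for Fos with Fosb and 0.475 for Fos with Jun. None of these 3 passed there (adjusted permutation p = 0.613, 0.616 and 0.282). The levels share their libraries and depth.

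The genes most like each member were read from total mRNA with the batch mean removed, for the 7161 genes whose mean reached 10 CPM. For Fos these were Ier3 (r = 0.836), Zfp36 (0.825) and Tigd2 (0.822) over 13 libraries. For Junb they began with Csrnp1 (0.903), for Jun with Tmem189 (0.936), for Egr1 with Nsmce4a (0.94) and for Ier2 with Srxn1 (0.939). The closest values were 0.936 for Jund with Ppp1r14b, 0.759 for Egr2 with Abracl, 0.871 for Egr3 with Ppp3ca and 0.915 for Atf3 with Nudt8. These are the highest of 7161 values per member, and no p is attached. Over the 10 libraries left without the 3 tumours, r for the same genes was 0.766 to 0.968.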

How the data were processed

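For each of the 26 SmartSeq2 libraries the authors deposited whole-number read counts for 19549 gene rows and a column of log2 values, per the file headers. The deposited log2 column covers 10472 rows and equals log2 of the count plus 0.5 less 1 constant per library; it was checked and not tested. The submitters' processing notes name HISAT, HISAT2, limma and mm10. Counter, annotation and strand were not given in the sources used here. In 830 rows the names of several genes are joined. Counts were filtered with filterByExpr, scaled with TMM, and fitted in edgeR 4.0.16 (R 4.3.3) by robust quasi-likelihood, with p-values adjusted by Benjamini-Hochberg and a threshold of 0.05. The paired fit held the tumour as a block, RNA source, and RNA source by size class and by batch, and fits within 1 source held size class and batch. Per the labels, 1 sorted population gave both libraries of each tumour, and the deviations of such pairs had a median correlation of 0.25, with a lowest of 0.0377. Tumours were divided at 1000 mg, a gap in the weights. The tumour is the replicate. Replicate libraries differed by more than sampling noise (lowest chi-square per degree of freedom 45.8). The fits were also run on simulated counts, drawn around 1 mean per gene except in genes given known folds. Those counts held no tumour effects and no libraries set apart, so they do not bear on either. The outcome is not reported here. Alternatives used DESeq2 1.42.0, voom of limma 3.58.1, other scalings and filters, single batches and left-out tumours. All 10 members are named. Of other genes, at most 3 per list and comparison with the lowest p, and the genes most like a member, are named. Some results that this rule names, among them the gene most like Fosb, are not reported here. Members and lists were chosen with earlier results of these data known.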

Additional observations from a re-analysis of the deposited data

Results flagged for a closer look

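In 4 of the 10 members the effect of RNA source differed between the batches by the test of that difference in edgeR. Of 12109 genes tested, 6.95% were called lower and 10.5% higher in batch 2. The log2 difference of polysome association, batch 2 against batch 1, was -1.80 for Fos, -1.98 for Egr1, -1.86 for Egr2 and -2.43 for Ier2. Without the 3 tumours that stood apart Ier2 was at -1.24 and did not pass the edgeR test (adjusted p = 0.0636).

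In 3 libraries a member lay far from the rest of its group of tumours. Fos in polysome mRNA of small replicate 7 was at 336 CPM, Junb in total mRNA of the same tumour at 109 CPM, and Jund in polysome mRNA of large replicate 2 at 8.16 CPM. A group was the small or the large tumours of 1 RNA source, for each of the 10 members in turn, with both batches pooled. Chance marks about 1 in 20 such groups, so marks of this number can arise by chance. The part of batch in them was not tested. Small replicate 7 also held the most fibroblast marker RNA of all libraries, 4619 CPM in total and 4527 CPM in polysome mRNA, and 3908 CPM of epithelial markers in total mRNA. Their part in these values was not tested.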

How the results depend on the processing

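No value or call of the 10 members turned with another scaling or filter except Ier2 between large and small tumours in polysome mRNA (-0.026 with upper-quartile scaling) and Egr2 in total mRNA by batch, which passed under upper-quartile scaling and with a mean of at least 10 CPM. Egr3 in total mRNA did not reach a mean of 10 CPM, so its call by batch could not be compared under that filter. The counts of all genes called moved by over 1.5 times as follows. Polysome against total mRNA gave 3606 genes in batch 2 alone. For large against small tumours, association gave 8 with no filter and 129 with DESeq2, and polysome mRNA 3 with no filter, 147 with DESeq2 and 1 with log2 weight. Total mRNA by batch gave 3185 genes with DESeq2. Without small replicates 6 and 7 and large replicate 3 the batch comparisons gave 865 (association), 5 (total mRNA) and 939 genes (polysome mRNA), where 1 tumour left out gave up to 2760. Pairs in polysome mRNA that passed went from 21 to 5 with batch means removed and to 6 without the 3 tumours, and those in total mRNA from 4 to 1 without them. Leaving out 1 tumour at a time gave 1385 to 2227 genes in association by batch, 839 (without small replicate 6) to 2787 (without large replicate 4) in total mRNA by batch, and 0 to 42 (without small replicate 5) in polysome mRNA by size.

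Some member folds changed sign. In polysome against total mRNA these were Ier2 (1.10 in batch 1 alone, 0.49 without the 3 tumours, -0.22 to 0.09 with 1 tumour left out) and Fos (-0.79 in batch 2 alone). In association by batch Egr3 ran from -2.35 with voom, where it passed (adjusted p = 0.0329), through -2.22 without large replicate 1 to 0.044 without the 3 tumours, and Fosb from -1.28 without the 3 tumours to 0.30 with 1 left out. In association by size, Jund was at -1.37 in batch 1 alone, Junb at -0.016 and Egr3 at 0.63 in batch 2 alone, and with 1 tumour left out Atf3 ran from -0.026 to 0.30 and Jund from -0.089 to 1.30. In total mRNA by size, Fosb was at -0.24 with voom, -0.29 without the 3 tumours, -0.69 in batch 1 alone and -0.28 with no batch term, while Jun was at 0.085, Jund at 0.079 and Atf3 at 0.55 in batch 1 alone. With 1 tumour left out Atf3 ran there from -0.77 to 0.25, Junb from -0.55 to 0.028 and Fosb from -0.62 to 0.63. In polysome mRNA by size, values without the 3 tumours were -0.0019 for Fos (up to 0.51 with 1 left out), 0.085 for Jun (down to -0.44 without large replicate 1), -0.37 for Egr1 and -0.05 for Ier2. In batch 1 alone they were 0.40 for Jun, -0.18 for Egr1 and -0.08 for Ier2, in batch 2 alone -0.11 for Junb and -0.64 for Atf3, and with no batch term -0.15 for Junb, -0.28 for Egr1 and -0.17 for Ier2. With 1 tumour left out they ran from -0.10 to 0.24 for Junb, -0.12 to 0.17 for Ier2, -0.19 to 0.44 for Egr1 and -0.75 to 0.57 for Atf3. By batch, Egr3 in polysome mRNA was at -0.43 with voom and ran from -0.35 to 1.14 (without the 3 tumours), Jun in polysome mRNA from -0.39 (without the 3) to 0.032, and Atf3 in total mRNA from -0.51 (without the 3) to 0.52. The cause of these changes was not tested.

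Without the replicate block of the tumour, Fosb (0.80, adjusted p = 0.0524) and Atf3 (-0.68, 0.108) no longer passed in polysome against total mRNA. The R numbers of the ER and LR tumours of batch 2 are shared only as numbers (correlations of deviations -0.0317 to 0.367), and with them as a replicate block no gene passed between sizes and Fosb in total mRNA was at -0.057. DESeq2 added 6 member calls and voom 3, and no member call was lost with either. Leaving out 1 tumour added calls in total mRNA by batch for Jun (adjusted p = 0.0397 without large replicate 1), Fosb and Egr2 (0.02 and 0.0197 without large replicate 5) and Fos (0.05 without small replicate 7), and in polysome mRNA for Fos (0.0406 without large replicate 3). Levels moved by less than 1 SD without the TMM factor. Egr3, with counts from 1 per library, is the member most limited by depth.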
